A study of Mus musculus with 2 samples.

Results

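The genes described here are the Notch receptors, the nuclear partners and the direct Notch target genes of T-lineage entry, 8 of the 28692 genes in the count tables. They are defined by name: the receptors *Notch1*, *Notch2* and *Notch3*, the transcription complex genes *Rbpj* and *Maml1*, and the targets *Hes1*, *Nrarp* and *Dtx1*. The cells were wild-type hematopoietic stem and progenitor cells (HSPCs) of CD1 mouse embryos at E13.5, taken from fetal liver after depletion of TER-119+ cells and sorted as Sca-1+ cKit+. They were grown at 1000 cells per well on plates coated with 10 μg/mL of the Notch ligand DL4 and 2.32 μg/mL of the adhesion molecule VCAM-1, a feeder-free model of the thymus. Both 10X Chromium libraries, FL001 and FL002, carry the same culture label, and neither label nor methods say how they differ. By the study's supporting text, freshly sorted cells and cells cultured for several days were pooled. No comparison between conditions, and no test over replicates, was therefore possible. Values are given for each library alone.

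Notch signaling starts when a ligand on a neighbouring cell or a coated surface, such as DL4, binds a Notch receptor. Proteases then cut the receptor, and its intracellular part enters the nucleus, where it joins the DNA-binding protein *Rbpj* and the coactivator *Maml1* to switch on target genes. In thymus-seeding progenitors *Notch1* is the receptor known to be required for T-cell fate. *Hes1* is a repressor of alternative programs, *Nrarp* a feedback inhibitor that destabilises the receptor complex, and *Dtx1* an E3 ligase of the Deltex family, and all are widely used as readouts of Notch activity.

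Kept cells had 1500 or more unique molecular identifiers (UMIs, 1 per captured mRNA molecule), 500 or more genes and no more than 10% of UMIs from mitochondrial genes, 1788 in FL001 and 4100 in FL002. They were placed in 5 gates by other genes than the 8 described. Of these gate genes, *Il2ra* and *Ptcra* are listed below among other known Notch targets. The gates that use them are therefore not independent of Notch target expression. The progenitor gate needed 2 or more UMIs of *Lmo2* and *Mef2c* together and at most 1 of *Cd3g*. The early gate needed at most 2 UMIs of *Cd3g* and at most 1 of *Lmo2* and *Mef2c*. The Cd3g gate needed 3 or more UMIs of *Cd3g* and 0 of *Il2ra*, the Il2ra gate 1 or more of *Il2ra*, and the committed gate 2 or more of *Ptcra*, *Lef1* and *Bcl11b* together. In this order the gates held 428, 381, 327, 738 and 451 cells of FL001, and 724, 1134, 873, 1668 and 501 cells of FL002. Gates can share cells: 168 of the FL001 cells and 198 of the FL002 cells in the Cd3g gate were also committed, and 275 and 291 cells of the Il2ra gate were. Of the early gate, 75 cells (19.7%) in FL001 and 276 (24.3%) in FL002 were also in the Il2ra gate, and 9 and 21 were committed. The progenitor gate shared 17 and 36 cells with the Il2ra gate.

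The libraries held 16320118 and 22651783 UMIs, and kept cells had a median of 7722 and 4752.5 UMIs. The medians of single gates lay between 6998 and 8014.5 UMIs for FL001 and between 4175 and 5649.5 UMIs for FL002. Only 10 barcodes were kept in both libraries. Levels are given as CPM, the number of UMIs of a gene per 1000000 UMIs of the cells in the gate. The summed progenitor markers (*Cd34*, *Flt3*, *Kit*, *Meis1*, *Hlf*, *Mecom* and *Spi1*) were at 653 and 673 CPM in the progenitor gate and 103 and 108 CPM in the committed gate. The summed T-lineage markers (*Tcf7*, *Cd3e*, *Cd3d*, *Thy1*, *Gata3*, *Rag1* and *Cd2*) were at 51.3 and 66.6 CPM against 1313 and 1311 CPM. Of the genes behind the sort, *Kit* was found at 41.4 to 72.1 CPM in the gates, and *Ly6a*, which encodes Sca-1, at 4.25 to 12.8 CPM. Myeloid genes were not confined to 1 gate. The summed list (*Mpo*, *Elane*, *Prtn3*, *Ctsg*, *Lyz2*, *S100a8*, *S100a9* and *Csf1r*) stood at 2455 and 1620 CPM in the progenitor gate, 3700 and 1111 CPM in the early gate, and 31.1 and 84.5 CPM in the committed gate. Cells with 20 or more UMIs of the first 6 of these genes and at most 1 of *Cd3g* form a myeloid gate of 87 and 93 cells, 71 and 65 of which also lay in the progenitor gate. Megakaryocyte markers (*Pf4*, *Itga2b*, *Gp9* and *Ppbp*) summed to 654 and 323 CPM in the progenitor gate. In the 5 gates the B-cell list summed to 13.8 to 78.3 CPM, the innate lymphoid list to 73.2 to 228 CPM and the mast cell list to 23.7 to 125 CPM.

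In the GRCm38 annotation *Notch1* (ENSMUSG00000026923) lies on the minus strand of chromosome 2 from 26457903 to 26516663, *Notch2* (ENSMUSG00000027878) on the plus strand of chromosome 3 from 98013527 to 98150361, and *Notch3* (ENSMUSG00000038146) on the minus strand of chromosome 17 from 32120820 to 32166852. *Rbpj* (ENSMUSG00000039191) lies on the plus strand of chromosome 5 from 53466152 to 53657362 and *Maml1* (ENSMUSG00000050567) on the minus strand of chromosome 11 from 50255634 to 50292311. *Hes1* (ENSMUSG00000022528) lies on the plus strand of chromosome 16 from 30064384 to 30067796, *Nrarp* (ENSMUSG00000078202) on the plus strand of chromosome 2 from 25180758 to 25183339, and *Dtx1* (ENSMUSG00000029603) on the minus strand of chromosome 5 from 120680202 to 120711927. Antisense genes that are also listed in the count tables overlap *Notch3* (*Gm17276*), *Rbpj* (*Gm10441* and *Gm40304*), *Maml1* (*Gm26542*) and *Nrarp* (*Gm38287*). Whether reads were counted by strand is not given in the sources used here, so those values may include reads of the partner.

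RefSeq promoter windows (GRCm38.p6, 250 bases before to 50 after the start) were found for 7 of the 8 genes, all but *Hes1*. They were searched on both strands for TGGGAA, the core letters that *Rbpj* is known to bind, which reads TTCCCA on the other strand. Among 32851 promoters of 300 bases, 8397 (25.6%) hold it. It was found in the window of 1 of the 7 genes, *Rbpj* itself, at 149 and at 65 bases before the start, the second inside an annotated first exon. No match says only that these letters are not in this window. The windows of *Notch1* and *Rbpj* lie inside the spans given above for these genes, so annotated exons also lie further upstream. The sequences below are the parts of the windows that lie before any annotated exon inside the window. They are shown for both receptors whose levels rise along the gates (*Notch1* and *Notch3*), for a target (*Nrarp*) and for the single gene with a match. The window of *Dtx1* lies inside an annotated exon and is not shown. They are written 5′ to 3′ on the strand of the gene, and capitals mark the match. *Notch1* is from chr2:26503825-26504072 on the minus strand, *Notch3* from chr17:32166891-32167140 on the minus strand, *Nrarp* from chr2:25180508-25180757 on the plus strand, and *Rbpj* from chr5:53590096-53590213 on the plus strand.
Notch1: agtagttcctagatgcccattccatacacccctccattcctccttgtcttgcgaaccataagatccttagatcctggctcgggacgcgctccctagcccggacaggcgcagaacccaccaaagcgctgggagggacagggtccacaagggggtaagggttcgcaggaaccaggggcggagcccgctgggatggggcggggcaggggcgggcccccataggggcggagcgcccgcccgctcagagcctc
Notch3: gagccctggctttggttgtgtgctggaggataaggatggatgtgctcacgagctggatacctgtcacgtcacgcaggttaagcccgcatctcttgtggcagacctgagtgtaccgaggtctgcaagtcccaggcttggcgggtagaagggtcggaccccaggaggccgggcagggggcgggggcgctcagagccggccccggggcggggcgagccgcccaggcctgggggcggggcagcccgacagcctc
Nrarp: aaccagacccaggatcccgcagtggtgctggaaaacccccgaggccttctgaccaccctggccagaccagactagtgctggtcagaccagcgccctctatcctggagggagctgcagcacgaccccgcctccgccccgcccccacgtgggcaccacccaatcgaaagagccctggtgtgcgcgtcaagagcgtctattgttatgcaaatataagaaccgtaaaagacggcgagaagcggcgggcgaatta
Rbpj: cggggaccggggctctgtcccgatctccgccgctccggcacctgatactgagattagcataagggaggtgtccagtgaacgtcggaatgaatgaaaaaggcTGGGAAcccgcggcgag
The G and C content of the whole windows was 68.3% for *Notch1*, 70.0% for *Notch3*, 60.0% for *Nrarp* and 64.7% for *Rbpj*, against a median of 52.7% over all windows, and they held 23, 25, 21 and 26 CpG against a median of 7.

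*Notch1* was found in every gate, and its level rose from the progenitor to the committed gate in both libraries. In FL001 it was at 68.5 CPM in the progenitor gate, 97.4 in the early gate, 188 in the Cd3g gate, 172 in the Il2ra gate and 244 in the committed gate. In FL002 it was at 66.4, 118, 182, 176 and 253 CPM in the same order. The 95% exact Poisson intervals of the progenitor and the committed gate were 60.4 to 77.5 and 228 to 261 CPM in FL001, and 58.8 to 74.6 and 233 to 274 CPM in FL002. All intervals here cover counting error only, since cells of 1 library are not replicates. The order was progenitor, early, then Il2ra and Cd3g, then committed in both libraries, and the Il2ra and Cd3g gates did not differ beyond counting error. The ratio of these neighbours was 0.916 (0.825 to 1.02) in FL001 and 0.968 (0.888 to 1.06) in FL002. From the progenitor to the committed gate the level was 3.56 times (3.09 to 4.11) and 3.805 times (3.30 to 4.40) higher, a span chosen after the values were seen.

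*Notch3*, the receptor that is itself switched on during T-cell development, was rare, with 8 and 18 UMIs in the whole progenitor gate. Its level in FL001 was 2.16, 5.73, 12.0, 13.8 and 19.6 CPM from the progenitor to the committed gate. In FL002 it was 4.24, 8.67, 16.6, 17.1 and 27.9 CPM. The committed gate was thus the highest and the progenitor gate the lowest in both libraries, with 95% intervals that did not overlap (0.932 to 4.25 against 15.3 to 24.7 CPM in FL001, 2.51 to 6.70 against 21.6 to 35.5 CPM in FL002). The step from the early to the Cd3g gate depended on how shared cells were counted. It was 2.10 and 1.91 times with gates as defined, but 0.867 and 1.59 times when each cell was counted once, in the first of the committed, Il2ra, Cd3g, progenitor and early gates that it met.

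*Notch2*, which is known for its role in marginal zone B cells and some myeloid cells, went the other way. It was at 8.64, 6.06, 2.83, 5.59 and 3.64 CPM in FL001 and at 9.65, 8.33, 5.23, 5.37 and 4.64 CPM in FL002. The committed gate was at 0.421 (0.203 to 0.825) and 0.481 (0.223 to 0.954) times the progenitor gate. Neighbouring gates did not differ beyond counting error, and the level was 9.91 and 10.8 CPM in the myeloid gate.

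**Figure D1:**
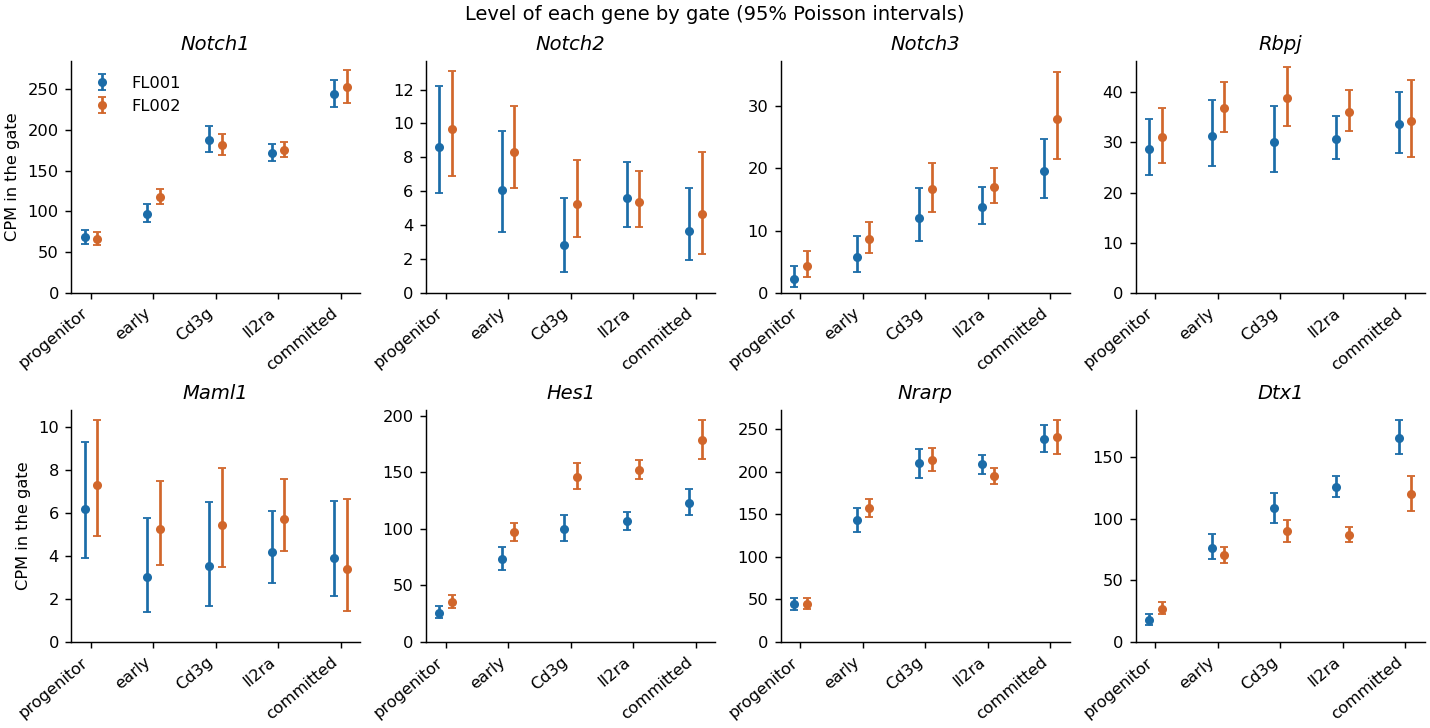
Level of each of the 8 genes in CPM (vertical axes, separate scales from 0) in the 5 gates, for FL001 (blue) and FL002 (orange), with 95% exact Poisson intervals as bars. *Notch1* climbs from 68.5 and 66.4 CPM to 244 and 253 CPM and the targets climb with it, while *Rbpj* stays between 28.6 and 38.8 CPM.

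The nuclear partners did not follow the receptors. *Rbpj*, through which all Notch receptors act on DNA, was at 28.6, 31.3, 30.1, 30.7 and 33.6 CPM in FL001 and at 31.1, 36.9, 38.8, 36.1 and 34.2 CPM in FL002. The committed gate was at 1.17 (0.896 to 1.54) and 1.10 (0.824 to 1.46) times the progenitor gate, and 1 lay inside both intervals, which reached 1.54 times at most. *Maml1*, the coactivator that bridges the complex to histone acetyltransferases, was at 6.21, 3.03, 3.54, 4.19 and 3.92 CPM in FL001 and at 7.30, 5.27, 5.45, 5.72 and 3.38 CPM in FL002. Its highest value was in the progenitor gate in both libraries, but the ratio of committed to progenitor cells, 0.631 (0.300 to 1.28) and 0.463 (0.184 to 1.03), did not exclude equal levels.

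The targets rose with the receptors *Notch1* and *Notch3*, and their largest step in fold lay between the progenitor and the early gate. Freshly sorted cells were pooled with cultured ones and are not marked in the data. Time on DL4 therefore cannot be told apart from this step. *Hes1* was at 25.6, 73.4, 100.1, 107 and 123 CPM in FL001 and at 35.5, 97.2, 146, 152 and 178 CPM in FL002. *Nrarp* was at 44.5, 143, 209.8, 209 and 239 CPM in FL001 and at 45.2, 157, 214, 194 and 241 CPM in FL002. *Dtx1* was at 17.8, 76.5, 108, 126 and 166 CPM in FL001 and at 27.1, 70.2, 89.7, 86.8 and 119.9 CPM in FL002. The progenitor gate was the lowest and the committed gate the highest for each target in both libraries. The committed gate stood above the progenitor gate 4.80 and 5.01 times for *Hes1*, 5.36 and 5.33 times for *Nrarp*, and 9.30 (7.20 to 12.2) and 4.43 (3.56 to 5.55) times for *Dtx1*.

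Neighbouring gates were then compared for all genes. A gene was called higher or lower when its level differed by over 2-fold in the same direction in both libraries, among genes with at least 10 CPM in 1 of the 2 gates in each library. From the progenitor to the early gate 5 of the 8 genes could be compared, 3 were higher and 0 lower. The background was 1.64% of 7366 genes higher and 1.68% lower. The 3 were the targets. *Hes1* was 2.86 times (2.24 to 3.68) higher in FL001 and 2.74 times (2.28 to 3.30) in FL002, with 95% exact conditional binomial intervals. *Nrarp* was 3.21 times (2.67 to 3.86) and 3.48 times (2.97 to 4.08) higher, and *Dtx1* 4.29 times (3.25 to 5.74) and 2.59 times (2.10 to 3.22). *Notch1* was 1.42 times (1.196 to 1.69) and 1.78 times (1.55 to 2.05) higher, short of 2-fold, and *Rbpj* was at 1.10 (0.820 to 1.46) and 1.19 (0.952 to 1.49). *Notch2*, *Notch3* and *Maml1* were below 10 CPM in both gates of both libraries and could not be compared. The median log2 ratio of the 5 genes was 1.52 and 1.38, beside −0.01 and −0.01 over all genes compared.

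Markers of other lineages also moved over this step. The myeloid list is given above, the megakaryocyte list went from 654 and 323 to 50.2 and 42.0 CPM, the mast cell list from 23.7 and 42.6 to 112 and 125 CPM, the innate lymphoid list from 103 and 73.2 to 221 and 179 CPM, and the B-cell list from 78.3 and 66.6 to 25.9 and 30.4 CPM. These are sums, and their genes did not all move alike. The mast cell sum was mostly *Cpa3* (40.2 to 119 CPM in FL002), still at 114 and 96.7 CPM in the committed gate. *Itga2b* rose while *Pf4* fell (16.2 to 26.9 and 275 to 7.48 CPM in FL002). The myeloid sum of FL001 rose mainly through *S100a8* (257 to 1379 CPM) and *S100a9* (130 to 1303 CPM). *Mpo*, *Elane*, *Prtn3*, *Ctsg* and *Csf1r* fell in both libraries. Apart from the myeloid list, the part of these lists in the ratios was not tested. When cells of the myeloid gate were left out, an alternative chosen after seeing the data, the same 3 targets were past 2-fold. The ratio of *Nrarp* in FL001 fell to 2.55, outside its interval, while the other target ratios stayed within theirs, between 2.29 and 3.49. When gates were read on cells thinned to 1500 UMIs each, the ratios were 6.11 and 3.79 for *Hes1*, 5.30 and 6.28 for *Nrarp*, and 29.2 and 2.92 for *Dtx1*, so that the value of *Dtx1* in FL001 stood far from that in FL002. *Notch1* was then at 2.37 in FL001, past 2-fold and outside its interval, and at 1.62 in FL002.

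From the early to the Cd3g gate 6 of the 8 genes could be compared, and 0 were higher and 0 lower by over 2-fold, against 1.55% and 1.14% of 7285 genes. The ratios of the targets were all between 1.28 and 1.502, and their intervals lay above 1 in both libraries. *Notch1* rose 1.93 times (1.67 to 2.23) in FL001 and 1.54 times (1.39 to 1.70) in FL002. With each cell counted in 1 gate, the FL001 ratios of *Notch1* and *Dtx1* fell to 1.503 and 1.15, outside their intervals. With gates on thinned cells the target ratios were 1.69 to 1.84 in FL001, and *Hes1* was at 1.76 in FL002, all above their intervals. The median log2 ratio of the 6 genes was 0.53 and 0.52. From the Cd3g to the Il2ra gate 6 genes could be compared and again 0 were higher and 0 lower, where 0.014% and 0.056% of 7141 genes were. Here the background is nearly empty, the single gene called higher being *Il2ra*, which defines the gate, and the ratios of the targets and *Notch1* ran from 0.908 to 1.16. With each cell counted in 1 gate, *Dtx1* in FL001 was at 1.33, just outside its interval.

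Committed cells were compared with the cells of the Il2ra gate that were not committed. Of 6 genes, 0 were higher and 0 lower by over 2-fold, against 1.5% and 0.798% of 7267 genes. *Notch1* rose 1.84 times (1.66 to 2.05) and 1.56 times (1.41 to 1.72), from 132 and 162 CPM to 244 and 253 CPM. *Notch3* rose 1.85 times (1.26 to 2.76) and 1.79 times (1.30 to 2.45). Among the targets *Dtx1* had the largest ratio, 1.69 (1.49 to 1.92) and 1.49 (1.29 to 1.73). *Hes1* was at 1.32 (1.15 to 1.51) and 1.21 (1.08 to 1.35), and *Nrarp* at 1.24 (1.12 to 1.36) and 1.31 (1.19 to 1.45). With gates on thinned cells *Hes1* was at 1.60 and 1.47, and *Dtx1* in FL001 at 2.09, above their intervals. At a threshold of 1.5-fold *Notch1* and *Notch3* would be past it in this comparison and from the early to the Cd3g gate.

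**Figure D2:**
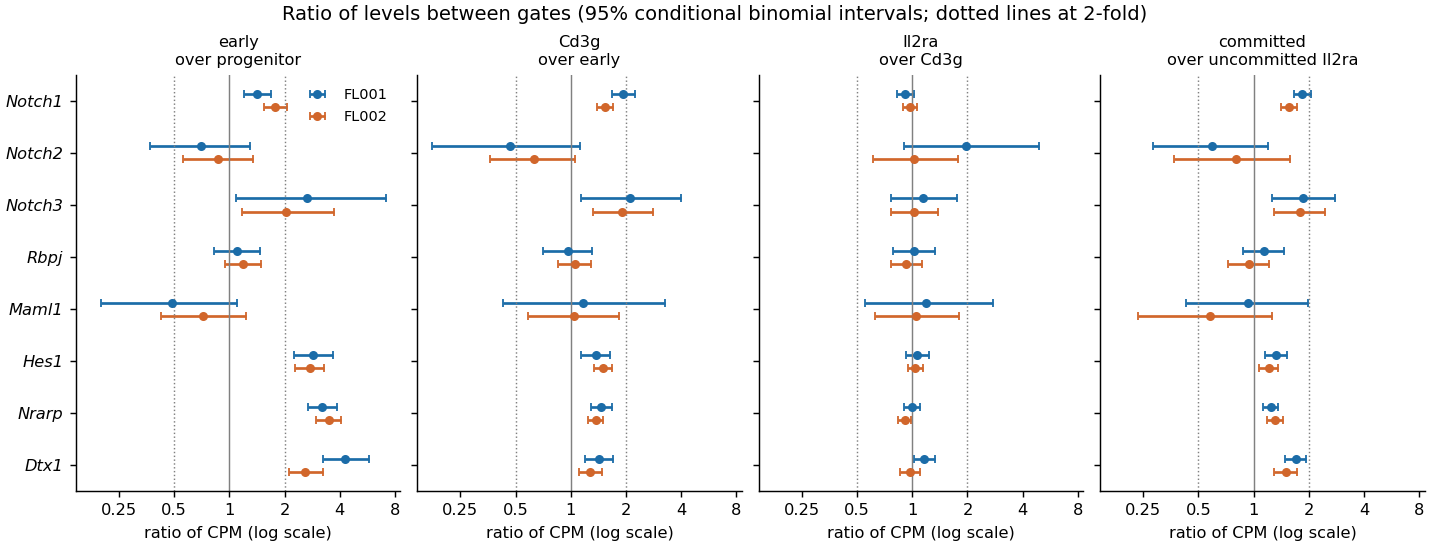
Ratio of CPM between gates (horizontal axes, log scale) for the 8 genes in the 4 comparisons, FL001 in blue and FL002 in orange, with 95% conditional binomial intervals and dotted lines at 2-fold. The 3 targets lie beyond 2-fold in both libraries only in the comparison of early with progenitor cells, and near 1 between the Cd3g and Il2ra gates.

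The libraries differed in level for *Hes1* and *Dtx1*. *Hes1* was higher in FL002 in all 5 gates, by 1.32 to 1.46 times, with every interval above 1. *Dtx1* was 1.52 times (1.11 to 2.09) higher in FL002 in the progenitor gate, but at 0.829 (0.712 to 0.966), 0.691 (0.624 to 0.765) and 0.724 (0.626 to 0.835) times the FL001 level in the Cd3g, Il2ra and committed gates. *Nrarp* stayed within 0.932 to 1.10 times, and every interval held 1. For *Notch1* the interval held 1 in 4 of the 5 gates, and in the early gate FL002 was 1.21 times (1.06 to 1.40) higher. *Notch3* was 1.42 times (1.001 to 2.02) higher in FL002 in the committed gate. What separates the libraries is not stated, so these differences cannot be told apart from differences in capture time, culture or preparation.

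For *Notch1* and the targets, the committed gate had both a higher level and a larger share of cells with the gene than the progenitor gate. *Notch1* had a UMI in 33.4% of progenitor-gate cells in FL001 (exact binomial 95% interval 29.0% to 38.1%) and in 73.6% (69.3% to 77.6%) of committed cells, and in 26.7% and 64.9% in FL002. *Hes1* went from 11.7% and 13.0% to 49.7% and 46.1%, *Nrarp* from 17.8% and 15.9% to 63.4% and 52.9%, and *Dtx1* from 10.0% and 11.5% to 65.2% and 40.1%. Level and share did not always move together between later gates. The share of *Nrarp* was 67.2% in the Il2ra gate of FL001 and 53.5% in the Cd3g gate of FL002, above the committed gate, where its level was higher. *Rbpj* was found in 20.3% to 23.3% of cells of every gate in FL001 and in 14.4% to 17.3% in FL002. UMIs per cell that had any rose less, from 1.78 to 2.63 for *Notch1* and from 2.17 to 2.98 for *Nrarp* in FL001, and from 1.46 to 1.84 and from 1.67 to 2.15 in FL002. After thinning every cell to 1500 UMIs, which left out no cell, *Notch1* was found in 8.88% and 8.81% of progenitor-gate cells and in 31.2% and 33.4% of committed cells. On the same thinned scale *Hes1* went from 3.56% and 4.89% to 16.9% and 23.0%, so that for this gene FL002 was the higher library at equal depth.

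Free RNA in droplets gives UMIs in cells that do not express a gene, and it held these transcripts. In barcodes of 1 to 100 UMIs *Hes1* was at 134 and 191 CPM, *Nrarp* at 143 and 186, *Notch1* at 121 and 136 and *Dtx1* at 68.3 and 64.0. The values of *Hes1* lay above its level in every gate of the same library. Those of *Nrarp* and *Notch1* lay above their progenitor-gate and early-gate levels. *Rbpj* was at 32.0 and 39.1 CPM, above its level in every gate but the committed gate of FL001. *Notch2* was at 17.6 and 23.1 CPM there, above its level in every gate. *Notch3* was at 9.92 and 16.9 CPM, above its progenitor-gate and early-gate levels, and both rested on 9 to 26 UMIs. The part of free RNA in the gate levels was not tested for any of these genes. Cells of the myeloid gate, whose own expression of these targets was not tested, were the deepest, with medians of 11150 and 7750 UMIs. There *Hes1* was found in 1.15% and 4.30% of cells, *Nrarp* in 2.30% and 7.53%, and *Dtx1* in 3.45% and 1.08%, all below the shares in the progenitor gate. *Notch3* was found in 0 of 87 and 0 of 93 cells, with upper limits of the exact binomial interval at 4.15% and 3.89%. Its share of progenitor-gate cells, 1.64% and 2.35%, is below these limits. *Notch1* was found in 26.4% (17.6% to 37.0%) and 21.5% (13.7% to 31.2%) of myeloid-gate cells. These intervals reach the shares of the progenitor gate, but the myeloid-gate cells were deeper. The level of *Notch1* was lower in them, at 38.7 (27.5 to 52.8) and 29.8 (18.7 to 45.1) CPM. In the progenitor gate it was at 68.5 (60.4 to 77.5) and 66.4 (58.8 to 74.6) CPM. At equal depth, after thinning, the shares were 4.93% and 5.16% against 8.88% and 8.81% in the progenitor gate. As counted, *Notch2* was found in 11.5% and 8.60% of myeloid-gate cells and *Rbpj* in 28.7% and 20.4%, more than in any of the 5 gates. After thinning, *Rbpj* was found in 5.17% and 4.30% of them, and in FL002 this was below all 5 gates (4.60% to 5.61%). No difference between the gates is read from the shares of these 2 genes. The same holds for *Maml1*, found in 3.45% and 3.23% of myeloid-gate cells and in 1.60% to 5.37% of the cells of the 5 gates.

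The next question was whether the genes were found in the same cells. For each of the 28 pairs in each gate, the number of cells with a UMI of both was set against the number expected if both were found independently among cells of like depth (5 equal bins of the gate by UMIs). Pairs were counted where this ratio was 1.2 or more in both libraries with at least 10 cells expected in each. In the progenitor gate 7 pairs had enough expected cells and 3 were counted, all of them *Notch1* with a target. Pairs of other genes were not examined, so the share of them past this ratio in such a mixed gate is not known. *Notch1* and *Dtx1* were found together in 34 cells of FL001 where 16.1 were expected, a ratio of 2.11 (1.48 to 2.90), and in 47 cells of FL002 where 23.7 were expected, a ratio of 1.98 (1.47 to 2.61). For *Notch1* with *Nrarp* the ratios were 1.66 (1.24 to 2.17) and 1.59 (1.195 to 2.06), and for *Notch1* with *Hes1* 1.58 (1.06 to 2.25) and 1.504 (1.08 to 2.04). Pairs of targets had too few expected cells in FL001 to be counted but the largest ratios among pairs with at least 5 cells expected in each library. This lower minimum was not set in advance. *Hes1* and *Nrarp* were together in 29 cells (9.63 expected) and 42 cells (15.5 expected), 3.01 (2.04 to 4.26) and 2.71 (1.97 to 3.62) times the expected number. *Hes1* and *Dtx1* were together in 18 and 37 cells, 3.41 (2.03 to 5.32) and 3.29 (2.33 to 4.49) times, and *Nrarp* and *Dtx1* in 28 and 42 cells, 3.27 (2.19 to 4.65) and 3.02 (2.19 to 4.03) times.

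This excess faded in the later gates. In the early gate the 3 target pairs were at 1.15 to 1.23 times in FL001 and 1.16 to 1.28 times in FL002, and of 10 pairs only *Nrarp* with *Dtx1* was counted, a pair that was below 1.2 in at least 1 library once the highest doublet scores were removed. In the Cd3g, Il2ra and committed gates 14, 23 and 14 pairs had enough expected cells and 0 were counted, with target pairs between 0.964 and 1.15 times. A ratio is limited by the shares, since the number of cells with both cannot exceed the number with the rarer gene, and the shares are higher in the later gates. *Rbpj*, whose level was flat, was found with *Hes1* at 1.11 and 1.11 times and with *Nrarp* at 1.07 (0.637 to 1.66) and 1.38 (0.920 to 1.97) times in the progenitor gate. In FL002 alone, *Rbpj* with *Nrarp* and *Rbpj* with *Dtx1* were among the 8 progenitor-gate pairs at 1.2 times or more. After removal of the top 5% of doublet scores the target pairs stood at 3.10 to 3.39 and 2.68 to 3.38 times in the progenitor gate, without myeloid-gate cells at 2.20 to 2.68 and 2.60 to 3.05 times. The part of progenitor-gate cells of other lineages, such as those with megakaryocyte genes, in the excess was not tested. The part of freshly sorted cells in the excess was not tested either, since they are not marked.

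Counting how many of the 3 targets a cell had shows the same pattern by cell, in a count chosen after the values were seen. In the progenitor gate 74.5% and 73.5% of cells had no target, 15.0% and 15.6% had 1, 7.01% and 8.01% had 2, and 3.50% and 2.90% had all 3. These were 15 cells of FL001 where 1.14 were expected from the shares of the 3 genes within depth bins, and 21 cells of FL002 where 1.94 were expected. In the early gate 31.5% and 35.7% of cells had none and 12.6% and 6.70% had all 3. In the committed gate 10.6% and 16.8% had none and 25.5% and 12.0% had all 3. Cells without a target were shallower, with a median of 7697 and 5456 UMIs in the progenitor gate against 11339.5 and 6176 for cells with 2. How many of the cells without a target were freshly sorted is not known.

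**Figure D3:**
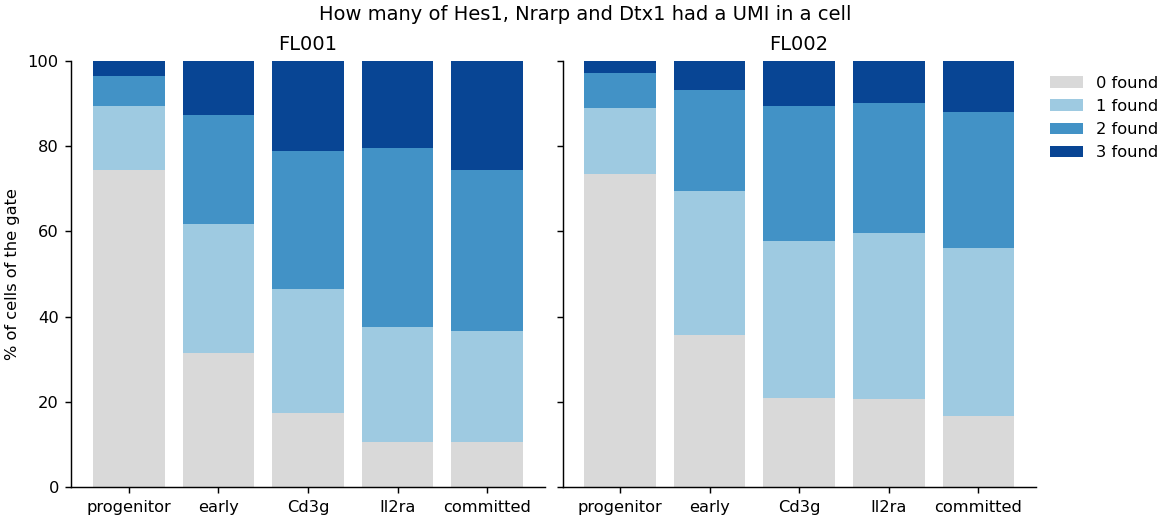
Share of the cells of each gate (vertical axis, %) in which 0, 1, 2 or 3 of *Hes1*, *Nrarp* and *Dtx1* had a UMI, for FL001 (left) and FL002 (right), bars stacked to 100%. Cells with none fall from 74.5% and 73.5% in the progenitor gate to 10.6% and 16.8% in the committed gate.

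Progenitor-gate cells with 2 or 3 targets, 45 in FL001 and 79 in FL002, were then set against those with none for the other 5 genes and 13 further genes, also chosen after earlier values were seen. *Notch1* was at 130.3 and 133 CPM in cells with targets against 46.0 and 51.8 CPM in cells without, 2.83 (2.05 to 3.88) and 2.56 (1.90 to 3.42) times higher. *Notch3* was 11.5 (1.65 to 127) and 6.59 (2.26 to 19.6) times higher, on few UMIs. *Rbpj* was at 1.32 (0.731 to 2.26) and 1.47 (0.874 to 2.36) times, with 1 inside both intervals. Of the 13 further genes, 5 were higher in cells with targets (*Tcf7*, *Gata3*, *Il2ra*, *Hey1* and *Hes5*) and 4 lower (*Flt3*, *Cd34*, *Meis1* and *Mpo*), with intervals clear of 1 in both libraries, and 4 had 1 inside at least 1 interval (*Kit*, *Myc*, *Spi1* and *Cd3g*). This comparison was not run over all genes, so these counts have no background beside them. The 5 higher genes, and *Myc*, are themselves listed below among other known Notch targets. *Hey1* had 8 UMIs in cells with targets and 1 in cells without, in each library. *Hes5* had 3 against 2 UMIs in FL002, with a lower limit of 1.01. *Tcf7*, the transcription factor of the first T-cell program, was 24.7 (12.2 to 55.2) and 12.3 (7.90 to 19.5) times higher, and *Gata3*, its partner in T specification, 3.91 (1.98 to 7.54) and 4.12 (2.17 to 7.70) times. The cytokine receptor gene *Flt3* was at 4.27 and 7.68 CPM against 66.1 and 65.5 CPM, 0.0647 (0.00777 to 0.237) and 0.117 (0.0316 to 0.305) times. *Cd34* was at 0.335 and 0.247 times and *Mpo*, which encodes a neutrophil granule enzyme, at 0.213 and 0.180 times. *Kit*, part of the sort, was at 0.852 (0.556 to 1.26) and 0.986 (0.669 to 1.42) times, with 1 inside both intervals. *Spi1*, a myeloid and progenitor transcription factor, was at 0.793 (0.580 to 1.07) and 0.638 (0.486 to 0.825) times, and *Cd3g* at 1.61 (0.589 to 3.83) and 2.996 (1.73 to 5.06) times. Every cell of both groups met the same gate on *Lmo2*, *Mef2c* and *Cd3g*, but those with targets were deeper, with medians of 11146 and 6145 UMIs against 7697 and 5456, and finding 2 targets is itself more likely in a deep cell. The myeloid gate shared 71 and 65 cells with the progenitor gate, and 82 of its 87 and 81 of its 93 cells had no target. The contrast was not confined to the progenitor gate. In the early gate the ratios were 2.54 and 2.09 for *Notch1*, 1.88 and 1.91 for *Tcf7*, and 1.87 and 1.85 for *Gata3*. *Flt3* was at 0.0601 and 0.103 times and *Mpo* at 0.235 and 0.225 times there, while both intervals of *Hes5* held 1. Cells with targets were again the deeper ones. Neither comparison was repeated without myeloid-gate cells or cells of other lineages, so their part in these ratios was not tested.

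**Figure D4:**
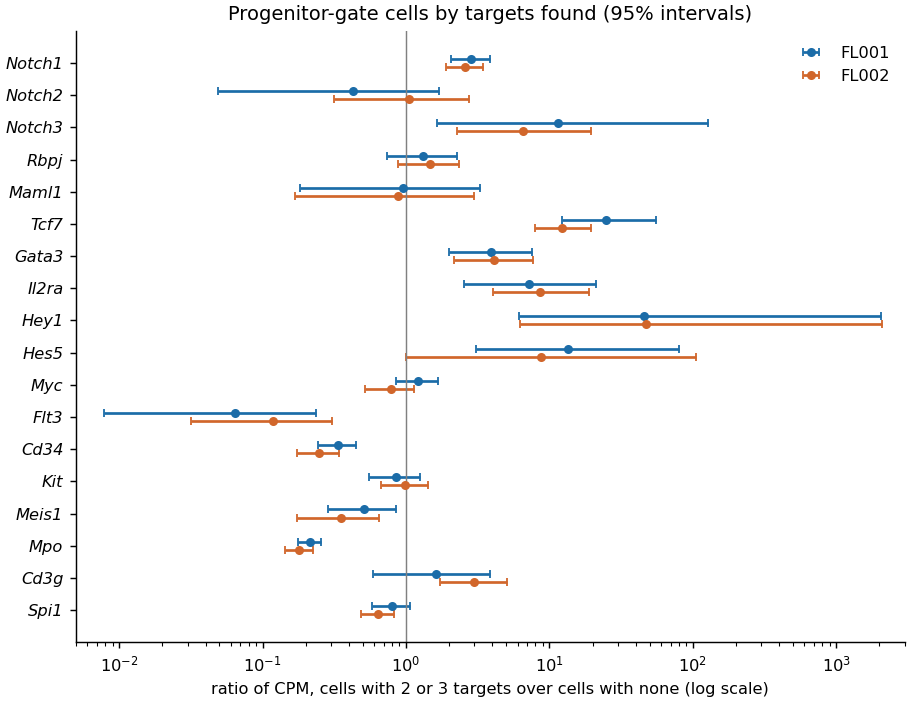
Ratio of CPM (horizontal axis, log scale) between progenitor-gate cells with 2 or 3 of *Hes1*, *Nrarp* and *Dtx1* and those with none, for 18 genes, FL001 in blue and FL002 in orange, bars showing 95% conditional binomial intervals. *Tcf7*, *Gata3*, *Il2ra* and *Notch1* lie to the right of 1 and *Flt3*, *Cd34* and *Mpo* to the left in both libraries.

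The rest of the pathway was read from a list of 58 genes. From the progenitor to the early gate 40 of them could be compared, 5 were higher and 1 lower, all among the 12 other known targets. Over all genes compared, 1.64% were higher and 1.68% lower. *Hey1*, a repressor of the Hes family, was 3.64 (1.85 to 7.70) and 3.92 (2.20 to 7.51) times higher, at 11.8 and 12.9 CPM in the early gate, close to the minimum. It was no longer called with gates on thinned cells or at a minimum of 30 CPM. *Tcf7* was 7.03 (5.62 to 8.87) and 6.53 (5.51 to 7.79) times higher, *Gata3* 3.46 (2.54 to 4.77) and 3.63 (2.76 to 4.85) times, and the cell cycle inhibitor gene *Cdkn1a* 2.29 (1.94 to 2.71) and 3.14 (2.68 to 3.68) times. *Il2ra* was 7.18 and 8.27 times higher, but it also defines a gate that shares cells with the early gate, and it was not called with each cell in 1 gate. *Id3*, an inhibitor of E proteins, was lower, at 4.04 and 19.2 CPM against 52.6 and 73.2 CPM, 0.0768 (0.0390 to 0.137) and 0.262 (0.210 to 0.327) times.

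Of the 46 listed genes that are not targets, 32 reached 10 CPM in some gate and none of these was called in any of the 4 comparisons. The other 14 never reached the minimum. Over all genes at most 1.64% were higher and 1.68% lower in a comparison, so 0 of 32 lies near the share of all genes. With only 1 UMI required in each gate, *Jag2*, *Jag1*, *Lfng* and *Aph1c* were past 2-fold in both libraries in at least 1 comparison, each below 10 CPM in both gates. With gates on thinned cells *Maml2*, a coactivator of the Notch complex, was higher and *Mfng* lower among committed cells. The single further receptor, *Notch4*, was at 0.270 and 0.941 CPM in the progenitor gate, and the 5 ligand genes (*Dll1*, *Dll3*, *Dll4*, *Jag1* and *Jag2*) were at 2.16 CPM or less in the progenitor and early gates. Of 10 receptor processing genes, the γ-secretase subunit gene *Psenen* was at 173 and 184 CPM in the early gate, 0.863 (0.770 to 0.967) and 0.993 (0.905 to 1.09) times the progenitor gate. Among 5 glycosylation genes, *Mfng*, a fringe enzyme that modifies Notch for ligand choice, was at 72.1 and 61.4 CPM against 114 and 96.0 CPM in progenitors. That is 0.633 (0.534 to 0.748) and 0.639 (0.553 to 0.738) times, under 2-fold. Of the 8 repressor complex genes, *Hdac1* was 1.38 (1.13 to 1.68) and 1.32 (1.11 to 1.57) times higher in the early gate. In the later comparisons the only listed genes called at the 10 CPM minimum were *Ptcra* and *Il2ra*, which both define gates. With each cell in 1 gate neither was called from the early to the Cd3g gate, and *Tcf7* was. With only 1 UMI required, *Heyl*, a Hes-family repressor, was also past 2-fold from the early to the Cd3g gate and among committed cells.

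The genes with the most similar pattern were found by the Pearson correlation of log2(CPM + 1) over the 5 gates of both libraries, with each cell counted once, among 3322 genes at 50 CPM or more in some gate of each library. These are 10 points that share libraries, given as a description. *Notch1* was closest to *Spats2* (0.988), *Tspan13* (0.987) and *Fkbp5* (0.983), and *Hes1* to *Lat* (0.990), *Lsm1* (0.986) and *Pafah1b3* (0.981). *Nrarp* was closest to *mt-Co2*, *Trbc1* and *Gata3* (all 0.988 to 0.989), and *Dtx1* to *Cd82* (0.989), *Higd1a* (0.984) and *Mllt4* (0.979). *Notch3* was closest to *Tmem258* (0.978), *Dck* (0.973) and *Uaca* (0.972), while the flat *Rbpj* had lower values, with *Cxxc5* (0.937), *Eif3h* (0.884) and *Sltm* (0.869). *Notch2* and *Maml1* were below the minimum level. Among the 8 genes, *Nrarp* and *Dtx1* had the highest correlation (0.964), followed by *Hes1* with *Nrarp* (0.950) and *Notch1* with *Notch3* (0.935), while *Notch1* and *Notch2* were at −0.778.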

How the data were processed

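Single-cell RNA was captured on the 10X Chromium in 2 libraries of the same culture label, and the authors deposited a matrix of raw UMI counts per gene and barcode for each, made with CellRanger. The submitters' processing notes name the mm9 build. The CellRanger version, the annotation and strand counting are not given in the sources used here. Of 28692 gene IDs, 28339 were found in the GENCODE M21 annotation (GRCm38), which was used for positions only.

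The members, gates and lists were chosen with earlier results of these data known. The named genes are the 8 members, a fixed pathway list of 58 genes, and for each member at 10 CPM or more the 3 genes with the most similar pattern. The leaving out of myeloid-gate cells, the number of targets per cell, the genes compared by it and the ratio of committed to progenitor cells were chosen after values were seen.

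Barcodes with 1500 or more UMIs, 500 or more genes and no more than 10% of UMIs from mitochondrial genes were kept as cells, 1788 of 1824 barcodes at that depth in FL001 and 4100 of 4113 in FL002. Scrublet (scanpy 1.11.5) marked 7 (0.391%) and 1 (0.0244%) cells, too few for it to have worked, so no doublets were removed and an alternative left out the 5% with the highest scores, 90 and 205 cells. Counts were summed per gate and library. Intervals are exact 95% Poisson (CPM), binomial (shares and cells with both genes of a pair) and conditional binomial (ratios of levels) limits. Depth per kept cell lay between 1559 and 27025 UMIs for FL001 and between 1510 and 17589 UMIs for FL002, and UMIs were thinned to 1500 per cell where shares were compared at equal depth. Cells are not replicates and the libraries are not known to be, so no test was run and no p-value is given. The alternatives changed the depth, fold, level and pair minimums, the handling of shared cells, barcodes and doublets, the way levels were averaged and the library left out. The scripts were tested on simulated data. Python 3.11.15, numpy 2.4.6, scipy 1.17.1, pandas 2.3.3 and matplotlib 3.10.9 were used. Promoter sequences are those of RefSeq for GRCm38.p6.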

Additional observations from a re-analysis of the deposited data

How the results depend on the processing

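The limits of these results are the depth of single cells and the lack of replicates. *Notch2*, *Notch3* and *Maml1* had few UMIs, and the libraries, though numbered, cannot serve as a test of the gates. No paired analysis was possible because the labels give only 1 group. Gates were compared within each library, and no test over the 2 libraries was run, since the labels do not say that they are separate cultures. The count of 3 targets higher from the progenitor to the early gate was the same in each library alone and under every alternative but one: it was 4, with *Notch3*, when only 1 UMI was required in each gate. No member was lower under any of them. Of 448 level ratios under the alternatives 425 stayed inside their main interval, 22 left it, and 1 ratio past 2-fold left it and turned direction, *Notch3* from the early to the Cd3g gate in FL001, at 0.867 with each cell counted in 1 gate. In 29 the direction turned, of which 27 had 1 inside the main interval. The other two were that ratio of *Notch3* and *Nrarp* from the Cd3g to the Il2ra gate in FL002, at 1.01 with gates on thinned cells. The cause was not tested. Of 400 shares 91 moved, 80 of them by thinning.

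For the members, the count higher from the early to the Cd3g gate went from 0 to 2 at 1.5-fold and ranged from 0 to 1 with 1 library left out (*Notch3*, without FL002). Among committed cells it went from 0 to 1 with gates on thinned cells and to 2 at 1.5-fold. For the pathway list, the higher genes from the progenitor to the early gate lost *Hey1* with gates on thinned cells and at 30 CPM, and *Il2ra* with each cell in 1 gate, while lower genes from the progenitor to the early gate went from 1 to 0 with gates on thinned cells, to 2 with only 1 UMI required in each gate and to 2 at 1.5-fold. From the early to the Cd3g gate, higher genes went from 1 to 2 with 1 UMI required and 3 at 1.5-fold (1 to 2 with a library left out), and lower genes from 1 to 0 with each cell in 1 gate, 0 with gates on thinned cells, 0 with 1 UMI required and 2 at 1.5-fold (1 to 2 with a library left out). From the Cd3g to the Il2ra gate 1 gene became lower with 1 UMI required. Among committed cells, higher genes went from 1 to 2 with gates on thinned cells and 3 with 1 UMI required (1 to 2 with a library left out), and lower genes from 0 to 1 in each of gates on thinned cells, 1 UMI required, 1.5-fold and either library left out (1 to 1).

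For all genes, the counts with a minimum of 30 CPM, with 1 UMI required and at 1.5-fold were, in that order, 64, 322 and 264 against 121 for higher in early cells, with 181 to 217 when a library was left out, and 59, 428 and 278 against 124 for lower, with 176 to 238. From the early to the Cd3g gate they were 57, 334 and 254 against 113 for higher, with 136 to 252, and 25, 279 and 199 against 83 for lower, with 116 to 229. Among committed cells they were 47, 365 and 249 against 109 for higher, with 149 to 225, and 21, 197 and 127 against 58 for lower, with 88 to 120. From the Cd3g to the Il2ra gate the 1 higher gene became 43 with 1 UMI required and 8 at 1.5-fold, with 3 to 14, and the 4 lower genes became 2 at 2500 UMIs per cell, 2 with gates on thinned cells, 1 at 30 CPM, 68 with 1 UMI required and 12 at 1.5-fold, with 8 to 9.

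For pairs, the count in the progenitor gate went from 3 to 5 without myeloid-gate cells and ranged from 3 to 8 with a library left out. In the early gate it went from 1 to 3 with each cell in 1 gate, 0 without the highest doublet scores, 2 at 2500 UMIs, 6 with the expected number taken over the whole gate and 0 at a ratio of 1.5, stayed at 1 but with a different pair (*Notch3* with *Nrarp*) without myeloid-gate cells, and ranged from 2 to 7 with a library left out. The count of 0 became 0 to 2 in the Cd3g gate, 1 to 2 in the Il2ra gate and 1 to 1 in the committed gate with a library left out. Thinned cells gave no count of pairs in the progenitor and early gates, where no pair had 10 expected cells in both libraries. The ratios of target pairs in the progenitor gate were then 3.24 to 3.99 in FL001 and 3.03 to 3.87 in FL002.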
